A study of Mus musculus with 9 samples.

Results

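The vascular endothelial growth factor (VEGF) genes Vegfa, Vegfb, Vegfc and Vegfd were followed on 9 arrays of the mouse line 3T3-L1, whose preadipocytes become fat-storing adipocytes after hormonal induction. The 4 genes were picked by name from the 330 genes on the array, and Vegfd carries its older name Figf there. The remaining family gene Pgf was not analysed here. The confluent preadipocytes of day 0 had received no inducer. Every later culture was induced for 2 days in medium with 10% serum, by dexamethasone (10 µM), methylisobutylxanthine (0.5 mM) and insulin (5 µg/ml), and was kept with insulin alone after that. The control cultures of days 2, 4, 6 and 8 had no further additive. The chickpea cultures of the same days had 0.5% CP in the medium, which the sample titles call Chickpea. The make-up of the preparation is not stated in the labels.

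VEGF proteins are secreted growth factors that act on receptor tyrosine kinases of the vessel wall. Vegfa drives the growth of blood vessels through the receptor encoded by Kdr, and its transcription is induced by hypoxia. Vegfb binds the receptor encoded by Flt1 and is abundant in tissues that burn fatty acids, where it has been linked to fatty acid uptake by the endothelium. Vegfc and Vegfd are made as precursors, act on the receptor encoded by Flt4 and drive the growth of lymphatic vessels. Adipose tissue depends on such signals, and fat cells and their precursors secrete several of them.

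The regions before the start sites are shown for the 2 members that lay above control in chickpea medium on most days, Vegfa and Vegfb. They are set beside the 2 that lay below it on most days, Vegfc and Vegfd. This grouping is with quantile scaling of the arrays. Under 3 of 6 scalings Vegfa was below control on days 6 and 8. Vegfa lies on chromosome 17 (minus strand, gene at 46016993 to 46032377), Vegfb on chromosome 19 (minus strand, 6982472 to 6987651), Vegfc on chromosome 8 (plus strand, 54077532 to 54186454) and Vegfd on chromosome X (plus strand, 164373522 to 164402650). Gene positions and sequences are from RefSeq on GRCm38.p6, in which all 4 genes were found. Each run holds the 250 bases before the gene's start, 5′ to 3′ on the gene's strand, at chr17:46032378-46032627, chr19:6987652-6987901, chr8:54077282-54077531 and chrX:164373272-164373521. Capitals mark matches, on either strand, to the GC box GGGCGG, the nuclear receptor motif AGGTCA and the TATA box core TATAA.
Vegfa: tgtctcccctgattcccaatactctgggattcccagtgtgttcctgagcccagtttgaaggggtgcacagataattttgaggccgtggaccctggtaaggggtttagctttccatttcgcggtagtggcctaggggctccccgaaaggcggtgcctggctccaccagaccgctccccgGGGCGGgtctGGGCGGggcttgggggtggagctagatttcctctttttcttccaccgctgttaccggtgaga
Vegfb: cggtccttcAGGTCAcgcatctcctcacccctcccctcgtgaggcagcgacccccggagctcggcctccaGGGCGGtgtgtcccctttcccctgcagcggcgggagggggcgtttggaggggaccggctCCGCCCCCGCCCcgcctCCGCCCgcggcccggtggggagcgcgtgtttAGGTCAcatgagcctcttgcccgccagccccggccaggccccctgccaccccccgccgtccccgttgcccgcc
Vegfc: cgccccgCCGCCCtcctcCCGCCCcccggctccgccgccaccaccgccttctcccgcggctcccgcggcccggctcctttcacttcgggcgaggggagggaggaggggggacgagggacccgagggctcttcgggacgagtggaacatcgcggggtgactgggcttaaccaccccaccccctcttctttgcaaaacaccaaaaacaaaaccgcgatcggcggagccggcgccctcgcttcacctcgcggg
Vegfd: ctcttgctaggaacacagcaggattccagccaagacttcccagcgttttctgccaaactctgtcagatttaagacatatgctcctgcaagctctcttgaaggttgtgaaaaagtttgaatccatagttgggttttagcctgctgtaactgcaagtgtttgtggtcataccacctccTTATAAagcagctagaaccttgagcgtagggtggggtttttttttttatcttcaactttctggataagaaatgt

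GC boxes are bound by Sp1-type factors, and AGGTCA is the core letters that many nuclear receptors bind. The Vegfb window held 4 GC boxes, starting at positions -180, -121, -115 and -104 from the start site, and 2 AGGTCA motifs, at -241 and -73. The Vegfa window held 2 GC boxes, at -72 and -62, and the Vegfc window held 2, at -243 and -232. The Vegfd window differed in kind. Its only matches were 2 overlapping TATAA matches on opposite strands, at -74 and -73. The share of G and C was 76.4% for Vegfb, 71.6% for Vegfc, 59.2% for Vegfa and 42.4% for Vegfd, against a mean of 53.3% over the windows of 32536 mouse promoters. Of those windows, 33.0% held a GC box, 14.0% an AGGTCA and 22.7% a TATAA. The hypoxia response core ACGTG, searched on both strands, was in 16.7% of them and in none of these 4. Most mouse windows lacked it as well, so its absence does not set these 4 apart. Sequence outside the windows was not searched, so the search cannot tell whether a gene has this core elsewhere. A match is a string of letters and not a measured binding site, and no factor's binding was measured here.

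Each medium and day had 1 array, so culture and array differences are not separated. The labels name no separate cultures, and the days of one medium are not replicates of each other. Each VEGF gene had 1 spot, and all 4 spots exceeded the detection limit of 10 scanner units on all 9 arrays. Values below are log2 of the intensity after quantile scaling between arrays, unless scanner units are named. Probes differ in brightness, so levels are compared within a gene and never between genes. Probes with repeated spots varied within an array by a median SD of 0.07 on the log2 scale of the deposited values. These were probes of control genes such as Gapdh, so the SD does not give the error of the VEGF spots. The share of genes above the limit ran from 63.3% to 73.9% per array, and the median spot from 47 to 168 scanner units in the 4 control cultures and from 55 to 83 in the 4 chickpea cultures. For the comparison of the media, limma was fitted, with day as a block, to the 239 genes that were above the limit on at least 2 arrays and not constant at the floor after scaling. Its p-value sets the mean of the 4 same-day differences against how much they vary from day to day, so it says nothing of repeat cultures. In bulk RNA, fewer cells of a type and less RNA per cell cannot be told apart.

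Vegfb, the member linked to fatty acid handling, was higher in chickpea medium than in control medium on each of the 4 days with quantile scaling, the exception being day 8 in the unscaled intensities. It stood at 8.61 on day 0. The control values of days 2, 4, 6 and 8 were 6.56, 7.37, 7.69 and 7.95. The chickpea values were 8.03, 9.08, 9.21 and 9.14 on the same days. The 2 media did not overlap with quantile scaling. The lowest chickpea array, day 2 at 8.03, was above the highest control array, day 8 at 7.95, although by only a narrow margin. That complete separation was found for 44 of the 239 tested genes (18.4%), and a difference above 0 on all 4 days for 66 (27.6%). The separation of Vegfb depended on the scaling. Chickpea day 2 was below control day 8 with control gene scaling (7.76 against 8.44) and unscaled (9.06 against 9.90). With 75th percentile scaling it was just below (7.8599 against 7.8604). The same-day differences were 1.47, 1.71, 1.52 and 1.19, a mean of 1.47 ± 0.22 (SD over 4 days), or 2.78-fold. The limma estimate was 1.47 ± 0.17 (SE, 95% interval 1.04 to 1.90, adjusted p = 0.0112). Without day 4 the estimate was 1.39 and without day 6 it was 1.46, and neither passed (adjusted p = 0.0916 and 0.0882).

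Across all tested genes, 36 (15.1%) passed this limma test at an adjusted p under 0.05, of which 21 (8.79%) were higher and 15 (6.28%) lower in chickpea medium. The VEGF family thus had 1 gene called higher and 1 called lower among 4. Without day 4 no gene passed the limma test (48 had an unadjusted p under 0.05), and without day 6 there were 4, all lower. The unadjusted count over all 4 days was 95 (39.7%). The split over all genes depended on the scaling. Median scaling gave 29 genes higher and 22 lower, and scaling to the 75th percentile 20 and 23. Scaling to the control genes gave 1 and 34, the deposited values 1 and 6, and unscaled intensities 0 and 14. The median difference of all genes moved with it, from 0.23 with median scaling to -0.38 with control gene scaling, and was 0.21 with quantile scaling.

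Vegfc, a lymphatic growth factor, was the second member past the test, with lower values in chickpea medium on 4 of 4 days. It stood at 7.67 on day 0, the highest of its 9 values. The control cultures of days 2, 4, 6 and 8 gave 6.70, 6.44, 5.99 and 5.16, and the chickpea cultures 5.47, 5.50, 5.02 and 4.77. The media overlapped at 1 point, since the control value of day 8 was below the chickpea values of days 2 and 4. The same-day differences were -1.22, -0.94, -0.96 and -0.39, so the media were closest on day 8. The limma estimate was -0.88 ± 0.20 (SE, 95% interval -1.39 to -0.36), 1.84-fold lower, with an adjusted p of 0.0474. A difference below 0 on all 4 days was found for 30 of 239 genes (12.6%).

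The Vegfc call lay close to the threshold. Leaving out day 2, day 4 or day 6 gave estimates of -0.76, -0.86 and -0.85 that no longer passed, with adjusted p from 0.0540 to 0.231. Its spot was also dim in chickpea medium, at 91, 70, 49 and 34 scanner units on days 2 to 8 against 136, 253, 197 and 155 in control medium. The scanner's signal to noise score for that spot was 0.218 to 1.67 in chickpea medium and 1.03 to 5.07 in control medium. The part of low signal in this difference was not tested.

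Vegfa, the main angiogenic factor, had scanned values, before any scaling, that ran in opposite directions in the 2 media. Its scanner intensity in control medium was 409, 858, 1412 and 2134 on days 2, 4, 6 and 8. The chickpea cultures gave 2184, 1246, 1078 and 499. Scanner units also carry the brightness of the whole array. The median spot on these days was 47, 129, 129 and 168 in control medium and 83, 55, 64 and 64 in chickpea medium. On the scaled log2 axis it stood at 7.59 on day 0, at 8.37, 7.88, 8.57 and 8.90 in control medium, and at 10.36, 9.46, 9.46 and 8.45 in chickpea medium. The brightest array was thus chickpea day 2, and by day 8 the order of the media was the other way round. The same-day differences were 2.00, 1.59, 0.89 and -0.44, which is 4.00-fold higher with chickpea on day 2 and 1.36-fold lower on day 8.

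Averaged over days, the Vegfa difference was 1.01 ± 0.44 (SE, 95% interval -0.13 to 2.15) and did not pass the limma test (adjusted p = 0.158). Without day 8 the mean of the other 3 days was 1.49 and passed (adjusted p = 0.0437). In that fit 30 of 235 genes passed as higher and 17 as lower. The trend of the difference with day was -0.40 ± 0.07 log2 units per day (SE, limma adjusted p = 0.0621) and missed the threshold too. In that test 8 of 239 genes passed (3.35%), 6 with a positive trend (2.51%) and 2 with a negative one (0.837%). None of the 4 VEGF genes was among them, and 1 of the 4 (Vegfa) had an unadjusted p under 0.05, as did 31.4% of all genes. Without the control array of day 8 the calls were 26 in each direction, and without either array of day 4 there were 0. The trends of the others were -0.05 ± 0.06 for Vegfb, 0.12 ± 0.06 for Vegfc and 0.28 ± 0.18 for Vegfd. Without either array of day 2 the Vegfd trend was 0.70. It passed without the chickpea array (limma adjusted p = 0.0391) and not without the control array (0.0562).

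Vegfd, the other lymphatic factor, had its largest value before induction, 9.04 on day 0. In control medium it was at 6.85, 7.60, 6.90 and 5.91 on days 2, 4, 6 and 8, and in chickpea medium at 5.69, 5.16, 5.50 and 6.24. The chickpea values were below the control values on days 2, 4 and 6 and above on day 8, with differences of -1.16, -2.44, -1.40 and 0.34. The day 4 difference, 5.44-fold, was the largest same-day difference of any member. The limma estimate was -1.17 ± 0.47 (SE, 95% interval -2.38 to 0.05, adjusted p = 0.137) and did not pass. Without day 8 it was -1.67 (adjusted p = 0.0450), in a fit where 17 of 235 genes passed as lower and 30 as higher. Its spot was at 42 to 125 scanner units in chickpea medium and at 118 to 531 in control medium. The signal to noise score of that spot was 1.209 to 2.095 in chickpea medium and 0.955 to 4.039 in control medium. It was lowest on the control array of day 8.

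**Figure D1:**
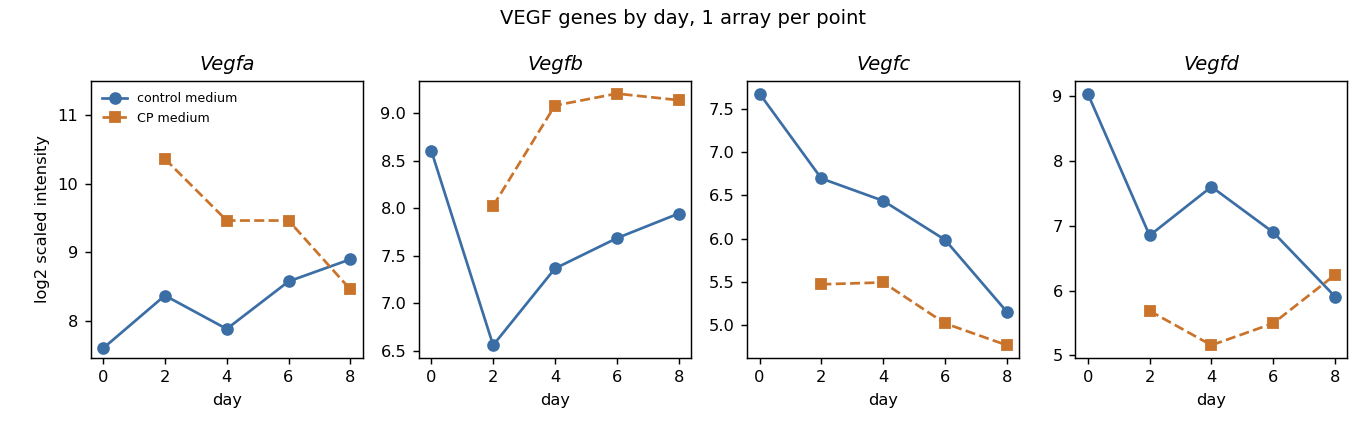
Log2 scaled intensity (y axis, its range set per gene) of the 4 VEGF genes against day of differentiation (x axis), with circles for control medium and squares for medium with 0.5% CP, 1 array per point. Vegfb lies higher with CP on all 4 days, Vegfc lies lower on all 4, and the Vegfa and Vegfd lines cross before day 8 with this quantile scaling. Under 3 other scalings Vegfa had crossed by day 6 and Vegfd had not crossed by day 8, and Vegfb crossed on day 8 unscaled.

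**Figure D2:**
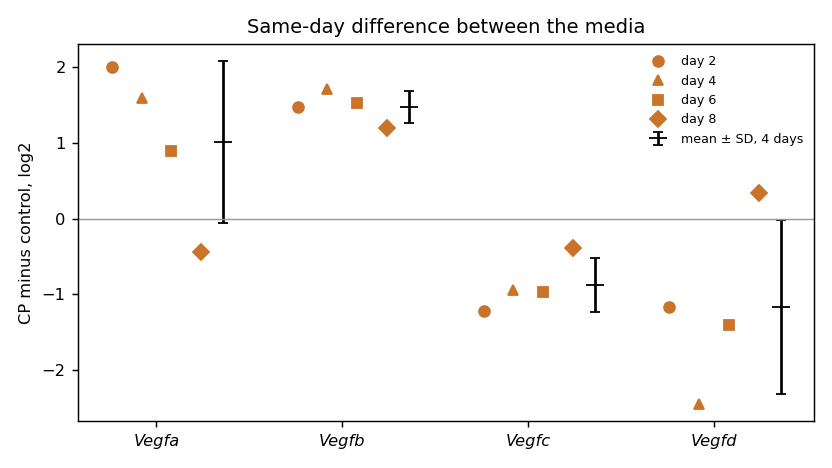
Same-day difference between the media (CP minus control, log2, y axis) for each gene, with a symbol per day and the mean ± SD over 4 days in black. With quantile scaling Vegfb spans 1.19 to 1.71 (unscaled, day 8 is at -0.21), while Vegfa runs from 2.00 on day 2 to -0.44 on day 8.

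The scaling moved the size of these differences and some of the calls. Vegfb was called under 3 of 6 scalings, with estimates of 1.47 (quantile), 1.52 (median) and 1.30 (75th percentile). It was not called with control gene scaling (0.72, adjusted p = 0.109), the deposited values (1.06, adjusted p = 0.273) or no scaling (0.81, adjusted p = 0.348). Relative to the median of all genes under the same scaling, the Vegfb difference was 1.10 to 1.29 under the 6 scalings. On single days it was above 0 under all 6 scalings on days 2, 4 and 6, and on day 8 under 5, with -0.21 in the unscaled intensities.

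Vegfc was called under 4 of 6 scalings and was below control under all 6 and on all 4 days of each. Its estimates ran from -0.88 with quantile scaling to -1.71 with control gene scaling (adjusted p = 0.0162), and from -1.09 to -1.33 relative to the median of all genes. Vegfd was below control under all 6 as well, at -1.30 to -1.49 relative to that median, and was called under none. Vegfa was above it by 0.41 to 0.80 relative to the median and was called under none. Its day 6 difference turned below 0 under 3 of the scalings, and its day 8 difference was below 0 under all 6. The day 8 difference of Vegfd was below 0 under 3 and above 0 under the other 3.

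**Figure D3:**
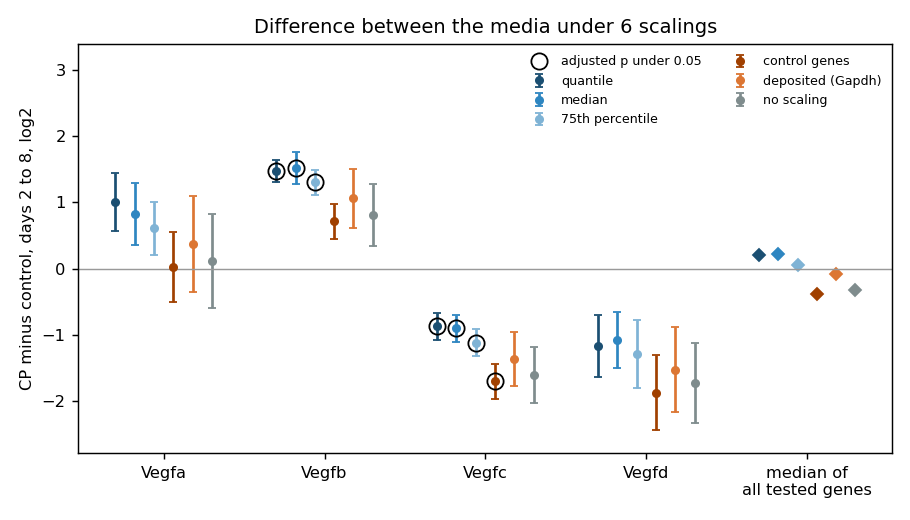
CP minus control over days 2 to 8 (log2, ± SE, y axis) for each VEGF gene under 6 scalings of the arrays, with rings around estimates whose limma adjusted p is under 0.05 and diamonds for the median of all tested genes. Vegfb lies above 0 and Vegfc and Vegfd below 0 under every scaling, while the Vegfa estimate with control gene scaling lies near 0.

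Ratios of 2 members on the same array do not depend on a factor that scales the whole array. The deposited values, however, carry a separate Gapdh factor for each of the 2 spot blocks of an array. On day 0 the Vegfd spot went from 674 scanner units to 750 deposited, and Vegfa from 344 to 304. Vegfb and Vegfc were scaled like Vegfa. Ratios with Vegfd thus also hold the quotient of the 2 block factors. The log2 ratio of Vegfb to Vegfc was higher in chickpea medium by 2.69, 2.66, 2.49 and 1.58 on days 2, 4, 6 and 8, a mean of 2.35 ± 0.52 (SD, 4 of 4 days). Quantile scaling is not a single factor, and with the deposited values the mean was 2.43. The ratio of Vegfb to Vegfd was higher by 2.64 ± 1.36 (SD, 4 of 4 days). With 4 days the exact sign-flip permutation test (two-sided) cannot go below p = 0.125, which both ratios reached (0.375 after Benjamini-Hochberg adjustment over 6 pairs), so neither passed.

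The other 4 pairs were less uniform. The ratio of Vegfa to Vegfb was 0.53 higher with chickpea on day 2 and -0.13, -0.63 and -1.64 on the later days, with a mean of -0.47 ± 0.91 (SD, exact permutation p = 0.375). Vegfa against Vegfc averaged 1.89 ± 1.41 and Vegfa against Vegfd 2.18 ± 2.09, both above 0 on 3 of 4 days. Vegfc and Vegfd, which both act on the lymphatic receptor, had a mean difference in ratio of 0.29 ± 0.94, above 0 on 2 of 4 days.

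Against the preadipocytes of day 0, the lymphatic pair and Vegfa lay on opposite sides. Vegfc was below its day 0 value on all 8 later arrays, with differences of -2.90 to -0.98, and Vegfd on all 8, with differences of -3.88 to -1.44. Both held under each of the 6 scalings. Values below day 0 on all 8 arrays were found for 38 of 239 genes (15.9%) with quantile scaling. Vegfa was above day 0 on all 8 arrays by 0.28 to 2.77, as were 26 of 239 genes (10.9%). This held under 5 scalings, but with the deposited values Vegfa was below day 0 on 2 arrays. Vegfb minus its day 0 value was -2.05, -1.24, -0.92 and -0.66 on days 2, 4, 6 and 8 in control medium, and -0.58, 0.48, 0.60 and 0.53 in chickpea medium. Its control values were thus all below day 0, and 3 of its 4 chickpea values above. This depended on the scaling. With the deposited values all 4 chickpea arrays were below day 0, with control gene scaling 3 of the 4 were, and in the unscaled intensities 1 control array was above it by 0.49. The deposited values are scaled to Gapdh, whose own estimate for day 8 against day 0 was 1.81 ± 0.33 with quantile scaling (SE, limma adjusted p = 0.0670). Over all genes the median of that estimate was -1.08 with the deposited values, against -0.36 with quantile scaling.

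No VEGF gene passed the limma comparison of day 8 with day 0, in which 5 of 239 genes passed (2.09%), 3 higher (1.26%) and 2 lower (0.837%) on day 8. This fit assumes 1 chickpea effect for all days and that the single day 0 array varies like the others. The estimates were -2.27 ± 0.36 (SE, adjusted p = 0.0521) for Vegfc, -2.38 ± 0.85 (adjusted p = 0.183) for Vegfd, -0.80 ± 0.30 (adjusted p = 0.196) for Vegfb and 0.58 ± 0.80 (adjusted p = 0.696) for Vegfa. Of the 4, 3 had an unadjusted p under 0.05, as did 23.4% of all genes. Without either array of day 2 the Vegfc estimate was -2.33 and passed (limma adjusted p = 0.0269 and 0.0245), and without the control array of day 8 the Vegfa estimate was -0.63. The -0.63 rests on the chickpea effect of the other days, and no Vegfa array was below day 0 with quantile scaling. The number of genes called ran from 0 to 28 over the alternatives. The median over all tested genes was -0.36. Only 5 genes had a lower estimate than Vegfc and 3 a lower one than Vegfd. Within days 2 to 8, the change per day with medium in the model was 0.20 ± 0.05 for Vegfb and -0.19 ± 0.04 for Vegfc (both limma adjusted p = 0.0678). It was -0.09 ± 0.09 for Vegfa and -0.04 ± 0.09 for Vegfd. No gene of the 239 passed that limma test (0%), and 61 (25.5%) had an unadjusted p under 0.05, 2 of the 4 VEGF genes among them. Without the chickpea array of day 2 the change of Vegfc was -0.23 per day and passed (limma adjusted p = 0.0417).

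The genes with profiles most like each member were ranked over the 9 arrays among 188 genes above the limit on all of them, by the root mean square (RMS) difference between log2 profiles centred on their own means. Nearest to Vegfb was Rhoq, a small GTPase of insulin-stimulated glucose transport, with an RMS difference of 0.22, against a median of 0.91 over all genes. Rhoq was at 8.15 on day 0, at 6.08, 7.18, 7.46 and 7.92 in control medium and at 7.20, 8.73, 8.73 and 8.57 in chickpea medium. It thus showed the low control day 2 and the chickpea values above the same-day control values that Vegfb had. Next were the lipid kinase gene Pi4k2b (0.35) and Csf1, the macrophage growth factor (0.37).

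Nearest to Vegfa were Acsl4, an acyl-CoA synthetase that prefers arachidonic acid (0.27), Dusp4, a MAP kinase phosphatase (0.33), and Eif4ebp1, a repressor of translation initiation (0.41). The median was 0.90. Acsl4 was at 6.79 on day 0, at 6.99, 6.47, 7.06 and 7.39 in control medium and at 8.57, 7.73, 7.81 and 6.96 in chickpea medium. Its order of the media was also the other way round on day 8. For both lymphatic members the nearest gene was Dlk1, the preadipocyte factor that restrains adipogenesis, with RMS differences of 0.49 for Vegfc and 0.57 for Vegfd (medians 1.04 and 1.28). Dlk1 was at 13.28 on day 0, between 11.85 and 12.25 in control medium and between 10.67 and 11.02 in chickpea medium. Vegfc itself was second nearest to Vegfd (0.57), followed by the collagen crosslinking enzyme gene Lox (0.64). Pygb, a glycogen phosphorylase (0.51), and Smarcd2, a subunit of a chromatin remodelling complex (0.54), followed for Vegfc.

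Of the VEGF receptors and coreceptors listed, 1 of 5 was on the array, Kdr. It was at 8 to 20 scanner units, near the detection limit, and above that limit on 7 of 9 arrays, and its difference between the media was 0.21 ± 0.17 (SE, limma adjusted p = 0.376). Of the 17 other angiogenic factors listed, 3 were on the array. Angptl4, a secreted lipoprotein lipase inhibitor, differed by 0.83 ± 0.42 (limma adjusted p = 0.194), and Tgfb1, a growth factor of matrix production, by 0.92 ± 0.26 (limma adjusted p = 0.0673). The leptin gene Lep was not tested, being above the limit on 1 array.

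Of the 3 angiogenesis inhibitors on the array, 0 passed the limma comparison of media, and 0 had an unadjusted p under 0.05, against 15.1% and 39.7% of all genes. Thrombospondin 1 (Thbs1) differed by -0.15 ± 0.48, thrombospondin 2 (Thbs2) by 0.88 ± 0.50 and the matrix protein gene Sparc by -0.45 ± 0.34. The Thbs1 mean hides differences of 0.83, 0.80, -0.64 and -1.57 on days 2, 4, 6 and 8. Its trend was -0.43 ± 0.09 per day (SE, limma adjusted p = 0.0621). For the trend 0 of the 3 passed and 2 had an unadjusted p under 0.05, against 3.35% and 31.4% of all genes. The day 8 estimates of the 3 against day 0, in the same order, were -3.42, -2.27 and -0.83. None passed and 1 had an unadjusted p under 0.05, against 2.09% and 23.4% of all genes. Of the 5 hypoxia targets tested 0 passed the limma comparison of media, and 2 had an unadjusted p under 0.05, against 15.1% and 39.7% of all genes. The estimates for the media ran from -0.20 for Gapdh to 1.25 ± 0.29 for Slc2a1, the basal glucose transporter (limma adjusted p = 0.0512). The median of the 5 was 0.33, against 0.21 over all tested genes.

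Of 11 genes listed as regulators of Vegfa transcription, 7 were tested, of which 2 were higher and 1 was lower in chickpea medium, beside the 15.1% of all genes called. Ppargc1a, a coactivator of mitochondrial genes that also induces Vegfa, was higher by 2.57 ± 0.33 (SE, limma adjusted p = 0.0141), with 1 control array below the limit. Its estimates over the 6 scalings ran from 1.53 to 2.57. Hmox1, heme oxygenase, was higher by 2.37 ± 0.48 (adjusted p = 0.0363 in limma). Pparg, the master regulator of adipocyte genes, was lower, at -1.60 ± 0.25 (SE, limma adjusted p = 0.0248). Trib3, a stress-induced pseudokinase, had a difference that changed by -1.06 ± 0.06 log2 units per day (SE, limma adjusted p = 0.00918), from 4.64 on day 2 to -1.84 on day 8. On those days the Vegfa difference was 2.00 and -0.44, and a link between the 2 genes was not tested. The median difference of the list was 0.18. Ppargc1a and Hmox1 were called under 3 of the 6 scalings and Pparg under 4, with no change of direction. None of them passed without day 4. Without day 6 neither Ppargc1a nor Hmox1 passed, as 0 genes were called higher. The Trib3 trend was called under 5 of 6 scalings and missed the threshold without single arrays of days 4, 6 or 8 (adjusted p up to 0.199), except without the control array of day 8.

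**Figure D4:**
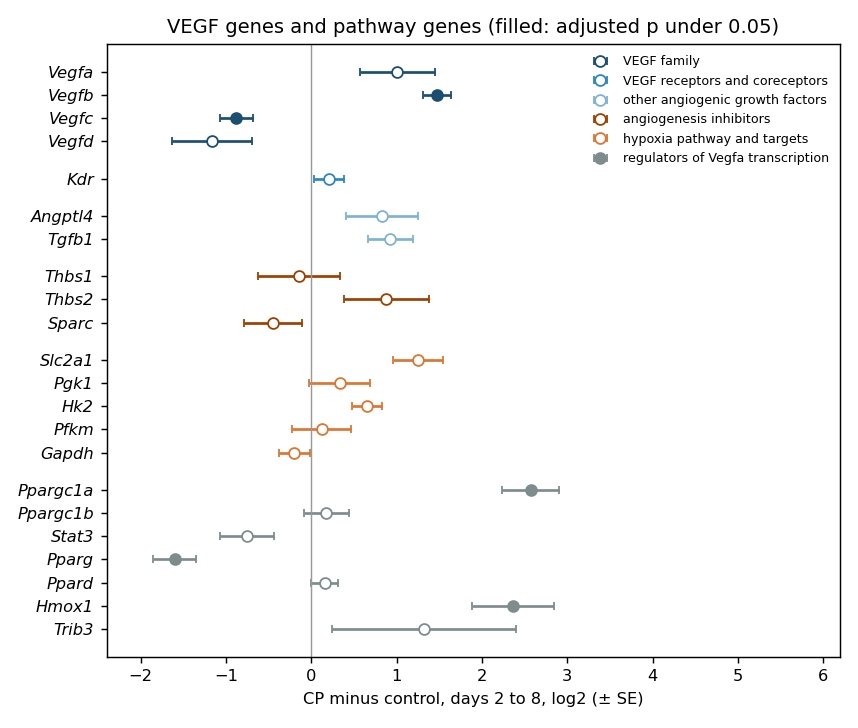
CP minus control over days 2 to 8 (log2, ± SE, x axis, quantile scaling) for the VEGF genes and every tested gene of the 5 pathway lists (y axis), coloured by list, with filled circles where the limma adjusted p is under 0.05. Filled are Vegfb, Ppargc1a and Hmox1 above 0, and Vegfc and Pparg below 0.

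Cell type markers moved with the media as well. Of 13 adipocyte markers, 6 passed the limma comparison of media as lower, against 6.28% of all genes. The estimate was below 0 for all 13 but Cd36 (0.90 ± 0.87), with a median of -1.69. Their summed scaled intensity was 1654 on day 0, 4347 to 27206 in control medium and 3312 to 6365 in chickpea medium, with 11 to 13 of them above the limit in control and 7 to 10 in chickpea medium. Retn (resistin) was above the limit on 0 of 4 and Cfd (adipsin) on 1 of 4 chickpea arrays. The 5 preadipocyte markers on the array summed to 10194 on day 0, 3707 to 4911 in control and 1665 to 2114 in chickpea medium. Most of that sum was Dlk1, with a difference of -1.24 ± 0.18 (SE, limma adjusted p = 0.0173). The other 3 tested did not pass, with 0.09 ± 0.15 for Gata2, 0.43 ± 0.23 for Gata3 and -0.24 ± 0.19 for Sfrp2, and the list median was -0.08. Of the 3 endothelial markers, Tek was above the limit on 0 of 9 arrays, Nos3 on 2 and Kdr on 7. The part of the share of adipocytes and preadipocytes in the VEGF differences was not tested.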

How the data were processed

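Per the file headers, GenePix Pro 6.1.0.4 gave each spot's intensity as the median pixel value minus local background. The signal to noise score of each spot was also deposited. The deposited value table holds linear intensity. No label states how the authors computed it. From the values, each of its 354 entries equalled 1 scanner spot, shifted and multiplied so that the 4 Gapdh spots of a block averaged 10000 (relative tolerance 1e-06). That match named the entries and tied each of the 9 samples to a scanner well through its values. The other 3 of 12 wells match no sample and were not used. Symbols were updated through RefSeq (317 current, 13 synonyms).

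Deposited intensity was converted to log2, quantile scaled and floored at 3.39, and the brightest probe stood for a gene. Of 369 empty and negative spots, 3 exceeded the limit of 10 units. Fits used limma 3.58.1 (lmFit, eBayes, R 4.3.3), with p adjusted over 239 genes by Benjamini-Hochberg. Residual degrees of freedom were 3 for the media, 5 for day, 2 for the trend of the difference and 3 for day 8 against day 0. Precision is limited by the number of arrays. The scripts were tested on simulated data. Alternatives were 5 other scalings, filters, limits, floors, priors, a fit without the day block and arrays or days left out. The members and lists were chosen with earlier results of these data known. Named were the members, their 3 nearest genes, list genes past a test, and Gapdh. Further list genes were named after their values were seen. A further listed gene is not reported here.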

Additional observations from a re-analysis of the deposited data

How the results depend on the processing

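Over the 4 fits of the 4 VEGF genes, 284 alternative values kept their direction and their side of the threshold, 24 no longer passed, 15 newly passed and 17 changed sign. The cause of these changes was not tested. Many of the alternatives could not change a direction, so the 284 are not separate checks. Other filters, limits, floors or priors and the mean of a gene's probes left each estimate unmoved (Vegfa chickpea minus control 1.01). They could change only its error and adjusted p. In the fit of the media, leaving out either array of a day or the whole day gave the same estimate (0.68 for Vegfa without day 2). For chickpea minus control, Vegfb no longer passed with control gene scaling (0.72), the deposited values (1.06), no scaling (0.81), or without day 4 (1.39) or day 6 (1.46). Vegfc no longer passed with the deposited values (-1.37), no scaling (-1.62), without day 2 (-0.76), day 4 (-0.86) or day 6 (-0.85), and, at an unmoved -0.88, with no floor, a robust prior, a trended prior or no day block. Without day 8, Vegfa (1.49) and Vegfd (-1.67) passed, and Vegfd also passed with no day block (-1.17). Without day 8 the fit called 30 of 235 genes higher and 17 lower, and with no day block 47 and 26 of 239. The change per day turned above 0 for Vegfa (0.019 with control gene scaling, 0.032 unscaled) and Vegfd (0.045 and 0.10). The trend of the difference passed for Vegfa unscaled (-0.72) and among genes above the limit on all arrays (-0.40). It turned below 0 for Vegfc with control gene scaling (-0.034), the deposited values (-0.21) and no scaling (-0.24), and for Vegfd with the deposited values (-0.0015) and no scaling (-0.051). Day 8 minus day 0 passed for Vegfc with median scaling (-2.24), and at -2.27 with a limit of 20 units or either other prior. The Vegfc over Vegfd ratio turned to -0.11 without day 4.

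Leaving out 1 array at a time, in fits where a lone array is assumed to vary like the others, gave chickpea minus control values of 0.68 to 1.49 for Vegfa, 1.39 to 1.57 for Vegfb, -1.04 to -0.76 for Vegfc and -1.67 to -0.74 for Vegfd. The change per day was -0.19 to 0.017, 0.16 to 0.24, -0.23 to -0.14 and -0.14 to 0.075 in the same order. The trend of the difference was -0.51 to -0.28, -0.13 to 0.014, 0.06 to 0.14 and -0.060 to 0.70. Day 8 minus day 0 was -0.63 to 1.30, -1.04 to -0.66, -2.52 to -1.86 and -3.13 to -1.13. The day 0 array cannot be left out of the last comparison. That comparison also assumes 1 chickpea effect for all days, which the Vegfa and Vegfd values of day 8 did not follow with quantile scaling. Over all alternatives, the genes called numbered 0 to 73 for the media, 0 to 6 for day, 0 to 52 for the trend and 0 to 28 for day 8. The media were paired by day, and the labels carry no replicate numbers for any other pairing. The dim spots of Vegfc and Vegfd in chickpea medium limit the precision of their differences. So does the low signal to noise score of Vegfd on the control array of day 8 (0.955).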
